A study of Triticum polonicum with 10 samples.

Results

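Transcript levels in roots of Triticum polonicum, dwarf Polish wheat, were compared between 2 iron salts in the presence of cadmium. The species is tetraploid and carries the A and B subgenomes. The groups were Fe2(SO4)3 with 80 µM CdCl2, libraries B50Cd and B200Cd, and FeCl3 with 80 µM CdCl2, libraries A50Cd and A200Cd. These 4 libraries were chosen from the 10 of the series by the letters and numbers of their column codes, in which A stands beside FeCl3, B beside Fe2(SO4)3, and 50 or 200 beside µM of the salt. All plants were seedlings of 4 weeks treated for 1 week, and RNA came from roots. The other 6 libraries, used below for reference, were a control without added salts (ACK), CdCl2 alone (Acd), FeCl3 alone (A50CK, A200CK) and, by code, Fe2(SO4)3 alone (B50CK, B200CK). Each treatment has 1 library. The design text speaks of 3 biological replicates per treatment, and no source used here says whether a library pools them, so the 2 doses of a salt served as its replication and p-values measure the spread between doses.

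The codes and the treatment texts of the sulfate libraries do not match throughout. B200Cd is a sulfate library with cadmium in both, although its text gives 50 µM. B50Cd is described in its text as 50 µM Fe2(SO4)3 without cadmium, and B50CK as 200 µM with cadmium. Results below follow the codes, and the main counts and named genes are given by the text as well. The same-dose pairs, levels of separated genes in other libraries, and gene class, position, length and level are given by code only. So are the salt differences of genes raised or lowered by cadmium and the genes without a count in 1 salt. As a measured check, 114 genes were 4-fold or more higher with cadmium in each of the 3 pairs of libraries that contain no sulfate. Their median level was 28.6 to 35.1 CPM (counts scaled to the library total) in Acd, A50Cd, A200Cd, B50Cd and B200Cd. It was 2.42 to 3.68 CPM in ACK, A50CK, A200CK, B50CK and B200CK. The 28 genes at least 4-fold lower in the same pairs had medians of 22.2 to 39.4 CPM in ACK, A50CK and A200CK. In Acd, A50Cd and A200Cd their medians were 2.13 to 3.08 CPM. In the sulfate libraries they were 1.23 CPM in B50Cd, 1.97 CPM in B200Cd, 4.84 CPM in B200CK and 28.1 CPM in B50CK. On both sets the library coded B50CK was on the side of the libraries without cadmium and B50Cd on the side of those with it. On the lowered set B200CK, without cadmium by code and text, was nearer the libraries with cadmium. No library was moved between groups on this basis.

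Grasses such as wheat release phytosiderophores, small chelators that carry ferric iron into the root. Cadmium has no role in the plant and enters in part through transporters for iron, zinc and manganese. Sulfate is the source of sulfur for cysteine, glutathione and the phytochelatins that bind cadmium in the cell, and chloride forms soluble complexes with cadmium. Equal doses of the salts do not supply equal iron, because Fe2(SO4)3 holds 2 iron atoms and FeCl3 holds 1. By code, the chloride libraries received 50 and 200 µM iron and the sulfate libraries 100 and 400 µM. The mean amount of iron by code was thus higher with sulfate, and the salt and the iron and anions it brings cannot be told apart. The files pair gene IDs with no name or description. No gene below therefore has a stated function, lists of iron, cadmium or sulfur genes could not be matched, and the root label was not checked against marker genes. In bulk roots, fewer cells of a type and less RNA per cell cannot be told apart.

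The 4 libraries held 14272778 (A50Cd), 17408726 (A200Cd), 17032641 (B50Cd) and 14952402 (B200Cd) counts. Of 274924 gene IDs, 95246 had a count in at least 1 of them and 24418 reached an average of 5 CPM or more. A level of 3 counts corresponds to 0.172 to 0.210 CPM. The spread between 2 libraries, as the standard deviation (SD) of their log2 ratio over these 24418 genes, was 0.48 between the chloride libraries and 0.49 between the sulfate libraries. Between a sulfate and a chloride library it was 0.62 (A50Cd and B200Cd), 0.63 (A200Cd and B200Cd), 0.65 (A200Cd and B50Cd) and 0.69 (A50Cd and B50Cd). By code, every library was thus closer to the other dose of its own salt than to either library of the other salt. By the treatment text, with B50CK in place of B50Cd, this did not hold. The SD was 0.99 between B50CK and B200Cd, against 0.86 between B50CK and each of A50Cd and A200Cd. Again by code, 3.75% of genes differed at least 2-fold between the chloride libraries, 4.99% between the sulfate libraries and 9.39% to 11.6% across the salts.

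With sulfate instead of chloride under cadmium, more genes were at least 2-fold lower than higher by code. On plain CPM this order reversed without A200Cd, to 702 genes higher and 562 lower. It was kept without A50Cd, without B50Cd and without B200Cd. Counted as genes whose every sulfate library lay at least 2-fold from every chloride library on the log2(CPM + 0.5) scale, 313 of 24418 genes were lower (1.28%) and 196 were higher (0.803%). The lower genes had a median log2 difference of -1.66, and 83 of the 313 were at least 4-fold apart by their means. The higher genes had a median of 1.51, with 23 of 196 at least 4-fold apart. The lower genes together took 1.70% of all counts in the chloride libraries and 0.530% in the sulfate libraries. The higher genes took 0.292% with chloride and 0.830% with sulfate. The median over all 24418 genes was 0.119 on this scale and 0.005 after TMM scaling (edgeR's correction for composition). With TMM-scaled CPM the split was 408 lower and 130 higher, so that 75.8% of the separated genes were lower, against 61.5% on plain CPM. Mean levels reached 730 CPM among the higher and 766 CPM among the lower genes, and of the 100 most abundant genes 1 was higher and 1 lower.

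**Figure D1:**
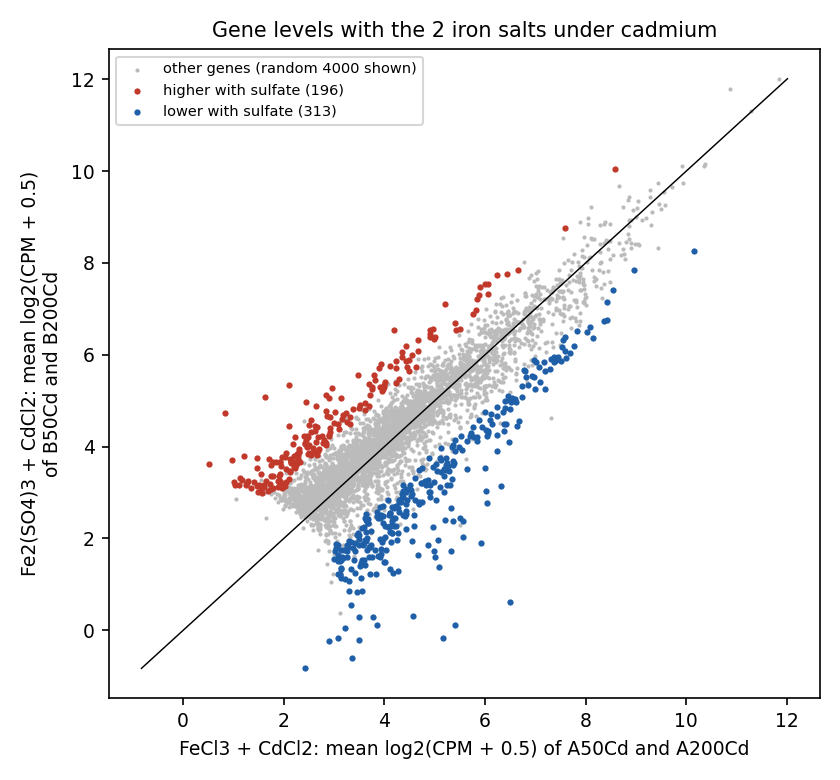
Mean log2(CPM + 0.5) of genes in the chloride libraries (x axis) and the sulfate libraries (y axis), both with cadmium, where the line marks equal levels. Grey points are a random sample of the other genes. The 196 red genes and 313 blue genes were chosen by this contrast, so their distance from the line is a description, and blue genes extend farther from it.

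The 2 same-dose pairs, by code, have no library in common and so give separate views of the salt difference. At 50 µM by code, B50Cd exceeded A50Cd by 2-fold or more in 1333 genes and lay below it by as much in 1511. At 200 µM, 1190 were higher and 1102 lower in B200Cd than in A200Cd. In both pairs 284 genes were higher and 428 lower, while 112 went opposite ways. Across the 24418 genes, which are not independent replicates, the log2 ratios of the pairs had r = 0.388 and rho = 0.366, and 64.9% had the same sign. With the doses crossed, B50Cd against A200Cd and B200Cd against A50Cd, r was 0.489. For the same genes without cadmium, B50CK against A50CK and B200CK against A200CK, r was 0.134 and 53.2% had the same sign.

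**Figure D2:**
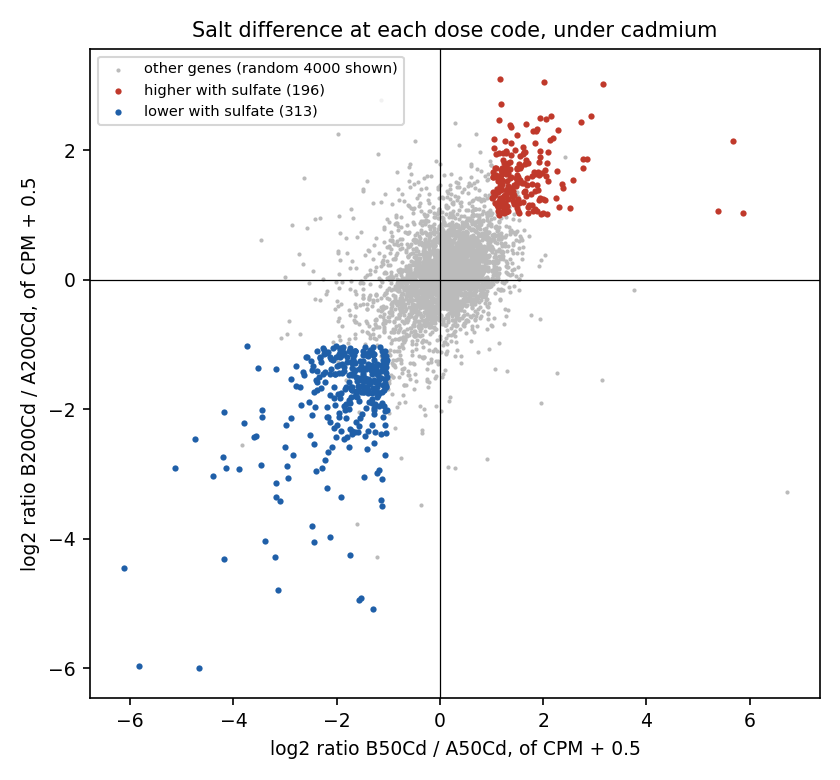
log2 ratio of sulfate to chloride at 50 µM by code (x axis) and at 200 µM by code (y axis), both with cadmium, 1 point per gene. Red and blue genes lie at or beyond 1 and -1 on both axes because the choice requires it. Grey points are a random sample of the other genes, and all 24418 genes have r = 0.388.

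The edgeR quasi-likelihood test with Benjamini-Hochberg adjustment called 0 of 50811 genes (0%), with a smallest adjusted p of 0.0545 that 75 genes share. At an adjusted p under 0.1 there were 936 genes, 709 of them lower with sulfate, whereas the smallest adjusted p was 0.673 with the 8 iron-fed libraries in 1 fit. At an unadjusted p under 0.05 there were 4669 lower (9.19%) and 3235 higher genes (6.37%), 7904 in all (15.6%), where chance gives 2541. In the fit of 8 libraries there were 3487 (6.16%), where chance gives 2829. DESeq2 called 1557 genes, 1231 lower and 326 higher, and limma on FPKM called 0. At an unadjusted p under 0.05 limma gave the reverse order, 4600 higher and 3548 lower, with a median log2 fold over all tested genes of 0.14 against 0.02 in edgeR. The edgeR count was 233 without A50Cd, 645 without B200Cd, and 0 without A200Cd or without B50Cd, the library whose text gives no cadmium. Without B50Cd, 5305 genes had an unadjusted p under 0.05. An exact permutation test of a single gene cannot go below p = 0.333 with 2 libraries a group (two-sided).

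Among the genes lower with sulfate, TraesCS6A01G395400 was at 59.1 CPM in A50Cd and 67.5 CPM in A200Cd, and at 9.92 CPM in B50Cd and 12.4 CPM in B200Cd. Its log2 fold, sulfate against chloride, was -2.62 ± 0.23 (SE, edgeR). The groups did not overlap, and each salt's libraries lay close together. In the remaining libraries it was at 31.2 CPM in ACK, 83.4 in Acd, 69.0 in A50CK, 14.7 in A200CK, 53.9 in B50CK and 18.5 in B200CK. Without cadmium its level was thus high at the code 50 and low at the code 200 with either salt. TraesCS5A01G509100 was at 15.3 and 19.9 CPM with chloride and at 1.53 and 2.27 CPM with sulfate, in the same order of doses, a log2 fold of -3.33 ± 0.29. It was also high in A50CK (10.4 CPM) and B50CK (13.6 CPM) and low in A200CK (1.02 CPM) and B200CK (1.65 CPM), with 3.01 CPM in ACK and 6.37 CPM in Acd. Both genes share the smallest adjusted p of 0.0545 with edgeR. By the treatment text the log2 folds of TraesCS6A01G395400 and TraesCS5A01G509100 were -1.13 ± 0.65 and -1.34 ± 0.75 (adjusted p = 1).

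Among the genes higher with sulfate, TraesCS3B01G414900 was at 6.52 CPM in A50Cd and 7.52 CPM in A200Cd, and at 30.5 CPM in B50Cd and 35.5 CPM in B200Cd (log2 fold 2.11 ± 0.22). Acd was at 23.7 CPM, nearer the sulfate than the chloride libraries, and ACK at 10.5 CPM. The 4 iron-fed libraries coded CK were low, at 2.53 CPM (A50CK), 1.91 (A200CK), 3.07 (B50CK) and 1.89 (B200CK), so that with sulfate the gene was high only in the libraries coded Cd. TraesCS7A01G529200 was at 4.2 and 3.39 CPM with chloride and at 20.5 and 21.9 CPM with sulfate, a log2 fold of 2.36 ± 0.26. Its order was the other way round without cadmium, at 10.8 CPM in A50CK and 25.1 in A200CK against 7.57 in B50CK and 6.50 in B200CK. ACK and Acd were at 20.7 and 15.7 CPM. The adjusted p of both genes was 0.0545 with edgeR. By the treatment text the log2 folds of TraesCS3B01G414900 and TraesCS7A01G529200 were 1.32 ± 1.01 and 1.80 ± 0.59 (adjusted p = 1).

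Under the treatment text, B50CK takes the place of B50Cd, and fewer genes were set apart. By the 2-fold rule 138 of 24917 genes were lower with sulfate (0.554%) and 37 higher (0.148%), and edgeR called 0 genes, with 1915 at an unadjusted p under 0.05. Of the lower genes 57 were lower by both readings, 18.2% of the list by code and 41.3% of that by text. Of the higher genes 10 were shared, 5.1% and 27% of the lists. No gene was on opposite sides. The readings share 3 of 4 libraries, which alone makes lists overlap.

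Another 4 genes were chosen for the same direction and no overlap under both readings, so that they hold their direction is a description. TraesCS5A01G235200 was at 25.3 CPM in A50Cd and 24.9 in A200Cd, against 6.63 in B50Cd, 6.09 in B200Cd and 4.43 in B50CK. Its log2 fold was -2.10 ± 0.23 by code and -2.42 ± 0.35 by text. The gene was also low in ACK (2.20 CPM), A200CK (2.25) and B200CK (2.83), intermediate in A50CK (10.3) and high in Acd (18.9), so every sulfate library was low. TraesCS3B01G522100 was at 13.0 CPM in both chloride libraries with cadmium and at 2.47, 2.61 and 3.64 CPM in B50Cd, B200Cd and B50CK, with log2 folds of -2.47 ± 0.26 and -2.23 ± 0.36. Chloride without cadmium gave 15.3 and 17.7 CPM (A50CK, A200CK), and B200CK was at 7.74 CPM, ACK at 6.97 and Acd at 1.71. All 4 sulfate libraries of this gene lay below all 4 chloride libraries.

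On the higher side, TraesCS3B01G010700LC was at 13.6 CPM in A50Cd and 17.7 in A200Cd, against 36.5 in B50Cd, 44.3 in B200Cd and 72.8 in B50CK. Its log2 fold was 1.25 ± 0.22 by code and 1.73 ± 0.37 by text. It was at 37.8 CPM in A50CK, 21.9 in A200CK, 43.0 in B200CK, 26.9 in ACK and 9.47 in Acd, so the levels of the salts overlapped once the libraries without cadmium were included. TraesCS7A01G776200LC was at 2.31 and 2.24 CPM with chloride and cadmium and at 9.28, 13.0 and 8.07 CPM in B50Cd, B200Cd and B50CK (log2 folds 2.17 ± 0.30 and 2.05 ± 0.44). B200CK was at 7.79 CPM, A200CK at 4.64, A50CK at 46.0, Acd at 1.60 and ACK at 328 CPM. The control was far above every other library for this gene. The adjusted p of these 4 genes ranged from 0.0545 to 0.0732 by code and was 1 by text (edgeR).

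**Figure D3:**
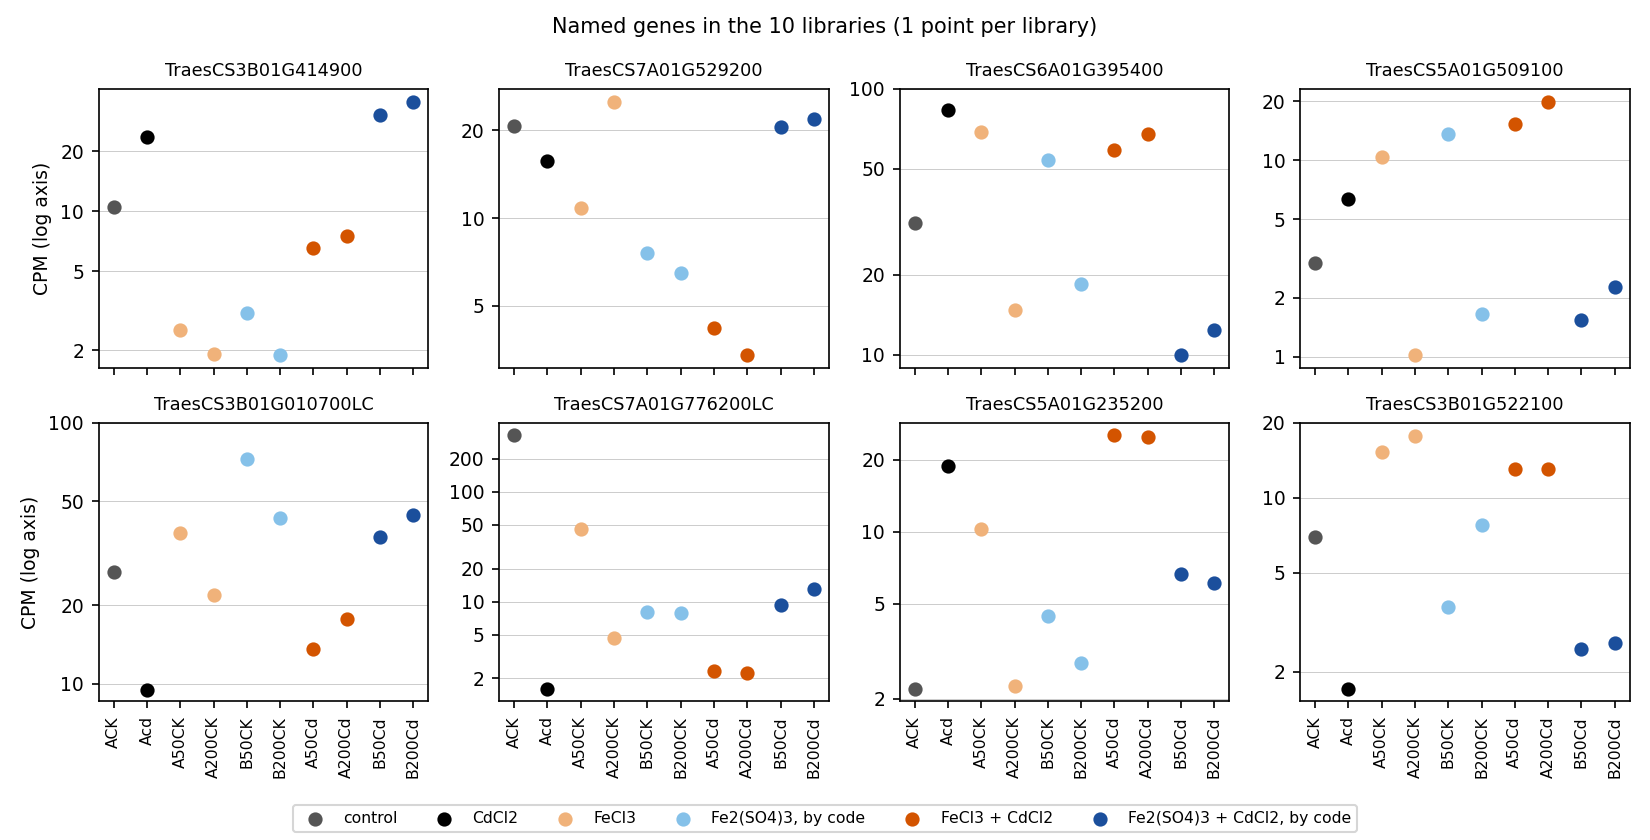
CPM (log axis) of 8 genes in the 10 libraries, 1 point per library, with no replicate of a treatment. In each panel the orange points (FeCl3 with CdCl2) and dark blue points (Fe2(SO4)3 with CdCl2, by code) do not overlap, as the choice of genes requires, while the paler points show the same salts without cadmium.

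The text reading led to other genes by its own order of p. TraesCS5B01G490500 was at 55.8 CPM in A50Cd and 56.1 in A200Cd and at 13.8 CPM in B50CK and 13.6 in B200Cd, but at 45.3 CPM in B50Cd, so its log2 fold was -2.20 ± 0.31 by text and -1.03 ± 0.49 by code. It was at 36.1, 45.4 and 43.7 CPM in A50CK, A200CK and B200CK, at 61.6 in Acd and at 1.17 in ACK. B50CK and B200Cd were the only iron-fed libraries under 20 CPM. TraesCS7B01G092200LC was at 12.6 and 13.4 CPM with chloride against 2.0 CPM in B50CK, 2.61 in B200Cd and 6.58 in B50Cd, and was at 3.25 to 4.36 CPM in the other iron-fed libraries, 5.38 in Acd and 0.147 in ACK. On the higher side, TraesCS5B01G059200 was at 2.87 and 2.13 CPM with chloride, 10.6 in B50CK and 12.4 in B200Cd, but 3.46 in B50Cd. Its levels in A50CK, A200CK, B200CK and ACK were 9.55 to 13.9 CPM, and Acd was at 3.78 CPM. TraesCS5D01G537900 was at 2.17 and 1.32 CPM with chloride, 14.5 in B50CK and 7.76 in B200Cd, and at 0.235 CPM in B50Cd, below both chloride libraries. It was at 26.9 CPM in ACK, 5.49 in Acd and 0.413 to 1.92 CPM in the other iron-fed libraries. In each of these 4 genes B50Cd lay nearer the chloride libraries than B50CK did. The genes were chosen with B50CK and not B50Cd in the sulfate group, so this is a description.

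The genes set apart by the salts under cadmium were next followed in the 6 libraries that had no part in their choice. The 313 lower genes had a median of 22.2 CPM in A50Cd and 23.0 in A200Cd, and of 5.75 CPM in B50Cd and 6.02 in B200Cd. Without cadmium their medians were 23.6 CPM in A50CK and 20.4 in B50CK, and 10.9 CPM in A200CK and 9.98 in B200CK. The salts were therefore close at each dose code, and the dose codes differed. ACK was at 8.14 CPM and Acd at 13.0 CPM. A50CK and B50CK were nearer the chloride mean for most of these genes (nearer the sulfate mean for 79 and 85 of 313), whereas A200CK, B200CK and ACK were nearer the sulfate mean for 209, 175 and 222. In Acd 174 of 313 were nearer the sulfate mean.

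The 196 higher genes had medians of 5.36 and 5.72 CPM in the chloride libraries with cadmium and of 17.3 and 19.2 CPM in the sulfate libraries, in the order of dose. No other library reached those sulfate levels, with medians from 4.47 CPM in B50CK to 10.7 CPM in Acd. A50CK and B50CK were each nearer the sulfate mean for 26 of 196 genes, A200CK for 74, B200CK for 68, ACK for 73 and Acd for 91. For all 24418 genes the medians ranged only from 14.2 to 16.6 CPM over the 10 libraries. Because the 2 sets were picked for their values in the 4 cadmium libraries, values elsewhere are expected to lie nearer the middle, and no test is attached to these counts.

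**Figure D4:**
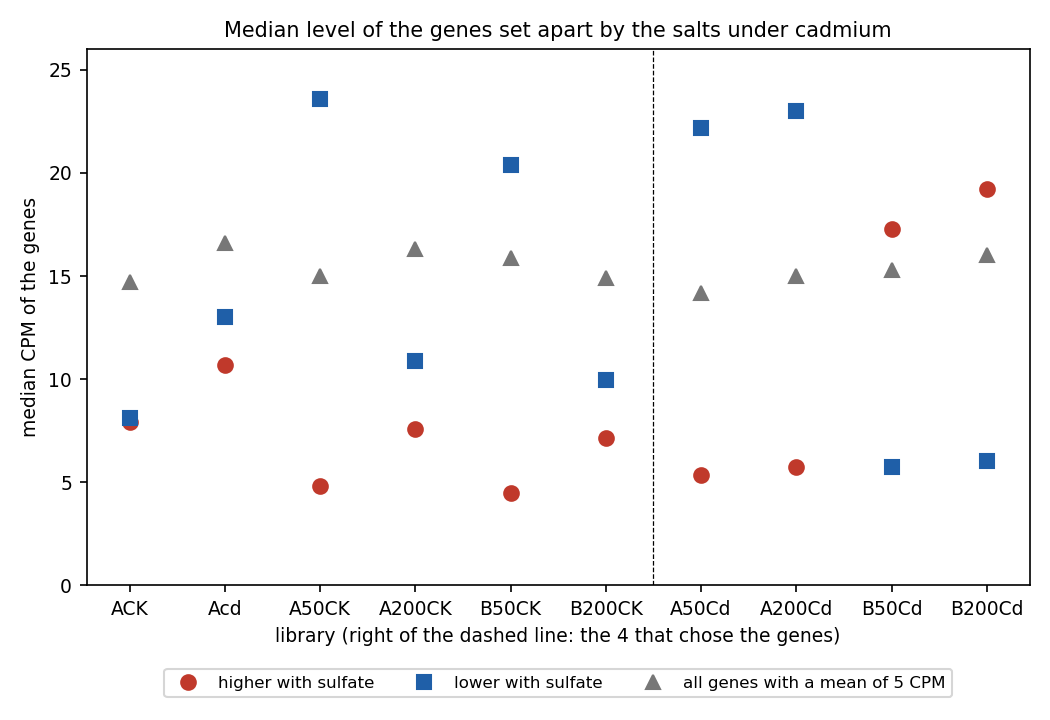
Median CPM of the 196 genes higher (red) and the 313 genes lower (blue) with sulfate under cadmium, and of all 24418 genes (grey), in each library. To the right of the dashed line are the 4 libraries that chose the genes; to the left, the blue medians are 20.4 and 23.6 CPM at the code 50 and 9.98 and 10.9 CPM at the code 200.

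The same contrast without cadmium, B50CK and B200CK against A50CK and A200CK, shares no library with it. Of the 313 lower genes 170 had a mean log2 difference above 0 there (54.3%), and of the 196 higher genes 87 did (44.4%), against 47.0% of all 24418 genes. The median differences were 0.06 and -0.09. Across all 24418 genes the differences with and without cadmium had r = -0.00375. Of the 313 lower genes 4 were 2-fold lower in every pair without cadmium (1.28%) and 1 was higher (0.319%). Of the 196 higher genes 3 were higher and 3 lower there (1.53% each). Over all 24418 genes the shares were 0.41% higher and 0.283% lower. Without cadmium, 83 of 25774 genes were 2-fold lower with sulfate in every pair (0.322%) and 88 higher (0.341%). The edgeR test called 0 of 52258 genes, and DESeq2 called 36. At an unadjusted p under 0.05 edgeR listed 1374 genes (2.63%), where chance gives 2613. By the treatment text, with B50Cd in place of B50CK, it listed 4930 (9.4%) against 2623 by chance, and again called 0.

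The 4 genes named without cadmium had the smallest p, 2 per direction, among genes averaging at least 5 CPM whose groups did not overlap. They were followed under cadmium. TraesCSU01G283400LC was at 0.275 and 0.273 CPM in A50CK and A200CK and at 14.9 and 21.5 CPM in B50CK and B200CK (log2 fold 6.03 ± 0.55), and at 21.1 and 25.6 CPM in B50Cd and B200Cd. It was at 0.561 CPM in A50Cd but 15.0 CPM in A200Cd, with 1.83 CPM in ACK and 0.104 CPM in Acd. Every sulfate library was high, and A200Cd was the only chloride library to join them. TraesCSU01G259400LC was at 1.15 and 1.02 CPM with chloride and 10.6 and 10.7 CPM with sulfate without cadmium (log2 fold 3.29 ± 0.48), and again A200Cd was high, at 13.0 CPM, beside 0.911 in A50Cd, 4.64 in B50Cd, 4.28 in B200Cd, 1.10 in ACK and 1.35 in Acd. Lower with sulfate was TraesCS5A01G203400, at 8.52 and 16.5 CPM against 2.21 and 1.18 CPM (log2 fold -2.84 ± 0.53). It kept that order under cadmium, at 7.57 and 10.5 CPM against 2.76 and 4.75 CPM, with 1.83 CPM in ACK and 3.62 in Acd. TraesCS2A01G414100 was at 12 and 5.93 CPM against 1.21 and 1.00 CPM without cadmium (log2 fold -3.04 ± 0.61) and under 0.9 CPM in all 4 libraries with cadmium and iron, with 1.98 CPM in ACK and 0.0518 in Acd. By the treatment text the log2 folds of these 4 genes without cadmium were 6.31, 2.87, -2.54 and -3.69, in the order given. Both unplaced IDs are long gene models with the suffix LC, and reads shared with similar copies cannot be told apart in them.

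Whether the salt difference changed with cadmium was tested directly over the 8 iron-fed libraries. The edgeR interaction called 0 of 56571 genes (smallest adjusted p = 0.815), with 3220 at an unadjusted p under 0.05 (5.69%), where chance gives 2829, and DESeq2 called 106. By the treatment text edgeR called 0, with 4375 at that limit (7.73%). A change of the salt difference is therefore not shown for any single gene with edgeR. The genes named next were chosen for a small p of this change and for salt ratios that do not overlap with and without cadmium, so their change is a description. TraesCS4A01G431300 was at 38.5 and 45.4 CPM with chloride and 0.0587 (1 count) and 1.61 CPM with sulfate under cadmium, but at 1.48 and 0.750 CPM with chloride and 12.8 and 4.31 CPM with sulfate without it, with 0.293 CPM in ACK and 4.92 in Acd. Its fitted log2 change of -8.67 rests in part on the 1 count and is not a precise size: it was -7.73 without B50Cd and -12.27 without B200Cd. TraesCS6B01G149300 was at 7.78 and 11.8 against 1.64 and 2.47 CPM with cadmium and at 3.41 and 2.93 against 6.86 and 8.44 CPM without (change -3.63 ± 0.54), with 3.59 CPM in ACK and 3.31 in Acd. In the other direction, TraesCS6B01G275100 was at 24.9 and 24.6 against 62.3 and 71.6 CPM with cadmium and at 71.0 and 59.4 against 23.0 and 22.3 CPM without (change 2.84 ± 0.41), with 9.61 CPM in ACK and 20.5 in Acd. TraesCS7A01G529200, described above, had a change of 3.67 ± 0.54. By the treatment text the changes of these 4 genes were -3.74, -1.98, 1.32 and 2.07, in the order given.

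Genes raised by cadmium were set apart by the salt in both directions. No gene lowered by cadmium was 2-fold apart in every pair, and most of those with an unadjusted p under 0.05 were lower with sulfate. Of the 114 genes raised by cadmium in the pairs without sulfate, 112 were among the 24418 genes, and of these 16 were 2-fold higher and 10 lower with sulfate in every pair, against 0.803% and 1.28% of all genes. At an unadjusted p under 0.05 in edgeR 33 of the 114 were higher and 26 lower, against 6.37% and 9.19% of all tested genes, and their median log2 fold was 0.20. Of 25 tested genes lowered by cadmium, 9 were lower and 1 higher at that limit, with a median log2 fold of -0.85, and the median over all tested genes was 0.02. Only 7 of the 28 lowered genes were among the 24418 genes, and 0 were 2-fold higher or lower in every pair. The medians of the 28 in the 4 libraries were low, at 1.23 to 3.08 CPM. The chloride libraries took part in the choice of these genes, so the difference from sulfate is a description.

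Position and kind of gene were examined for what the separated genes share beyond the contrast. Genes lower with sulfate made up 1.4% of subgenome A IDs and 1.22% of subgenome B IDs among the 24418 genes, and higher genes 0.792% and 0.669%. Among IDs of the Novel00015 form, 25 of 1190 were higher (2.10%) and 10 lower (0.840%), the reverse of the order over all genes. For IDs with the suffix LC, which marks low-confidence gene models in the bread wheat annotation, the shares were 1.68% higher and 1.19% lower, against 0.646% and 1.32% for the other wheat IDs. Over tested genes the median log2 fold was 0.36 for 3991 IDs of that form, 0.25 for 8020 LC IDs and -0.04 for 38800 other wheat IDs. IDs of the Novel00015 form took 2.22% and 2.44% of the counts in A50Cd and A200Cd and 2.98% and 3.02% in B50Cd and B200Cd, so the groups did not overlap. IDs of subgenome D, foreign to a tetraploid, took 1.19% to 1.23% in all 4 libraries.

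By chromosome, the share of genes lower with sulfate was 2.13% on 7A (34 of 1593) and 1.95% on 7B (30 of 1540), followed by 1.61% on 1A and 1.55% on 1B. The lowest share was 0.752%, on 4B. Shares of higher genes ran from 0.310% on 1B to 1.07% on 6B. These differences between chromosomes were not tested. IDs are numbered along each chromosome, so neighbours can be read from them. Of the 271 lower genes with an A or B chromosome and no suffix, 50 had another lower gene within 2 ID positions (18.5%), whereas 1.74% of all 20659 such genes had a lower gene that near. For the 133 higher genes the number was 11 (8.27%), against 0.857%.

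The longest run held 5 adjacent IDs on 7A, TraesCS7A01G201100 to TraesCS7A01G201500, singled out here after its values were seen. Their summed level was 1070 CPM in A50Cd and 999 in A200Cd, and 287 CPM in B50Cd and 413 in B200Cd, with a log2 difference of -1.66 to -1.49 for each gene. The sum was 262 CPM in ACK, 248 in Acd, 1350 in A50CK, 395 in A200CK, 948 in B50CK and 733 in B200CK. On 7B a run of 4 adjacent IDs (TraesCS7B01G107700 to TraesCS7B01G108000) summed to 990 and 945 CPM with chloride and to 270 and 352 CPM with sulfate under cadmium, and a further 3 lower genes began 3 positions on. In the remaining libraries that run was at 272 CPM in ACK, 234 in Acd, 1120 in A50CK, 374 in A200CK, 886 in B50CK and 694 in B200CK. The order of the 10 libraries was close to that of the 7A run: high in A50CK, A50Cd, A200Cd, B50CK and B200CK, and low in the others. On the higher side, 4 genes from TraesCS7A01G528700 to TraesCS7A01G529200, the last of which is described above, summed to 29.8 and 34.7 CPM with chloride and to 99.6 and 99.2 CPM with sulfate. They were at 102 CPM in ACK, 114 in Acd, 61.6 in A50CK, 122 in A200CK, 44.0 in B50CK and 45.2 in B200CK, so chloride with cadmium was the lowest of all. Adjacent genes can be near-identical copies, which was not checked for these runs. The counting of reads that match several genes is stated in none of the sources used here.

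**Figure D5:**
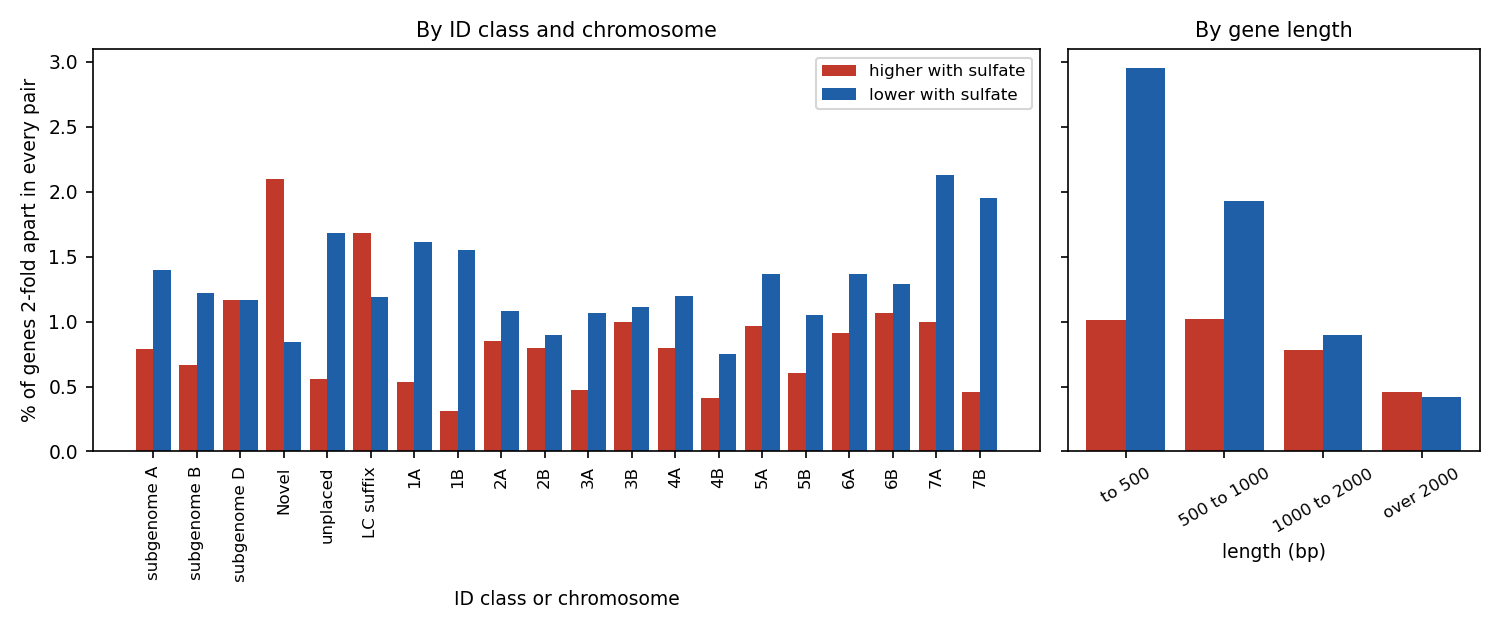
Share of the 24418 genes that were 2-fold higher (red) or lower (blue) with sulfate in every pair under cadmium, by ID class and chromosome (left) and by gene length in bp (right). Lower genes reach 2.13% on 7A and 2.95% among genes of up to 500 bp; IDs of the Novel00015 form and LC IDs hold more higher than lower genes.

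Gene length differed between the sets. For the genes lower with sulfate the median length was 831 bp, against 1049 bp for the higher genes and 1245 bp for all 24418 genes. Of genes up to 500 bp 2.95% were lower, falling to 1.93%, 0.899% and 0.421% in the classes to 1000 bp, to 2000 bp and over 2000 bp. The share of higher genes went from 1.01% to 0.461% over the same classes. Length moved with the salt across genes at large too: the median log2 fold (TMM) was -0.12, -0.07, 0.01 and 0.10 from the shortest to the longest class. The same classes gave -0.15, -0.11, 0.03 and 0.14 without cadmium, so this trend was present in both contrasts. The part of gene length in the salt difference was not tested. By level, the share of lower genes was 1.22% to 1.43% in every class from 5 to over 100 CPM, while that of higher genes went from 1.02% at 5 to 10 CPM to 0.603% at 100 CPM and over.

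Genes without any count in 1 salt were mostly absent with sulfate. By code and with an average of 1 CPM or more in the other salt, 31 genes had 0 counts in both sulfate libraries. Only 2 had 0 counts in both chloride libraries. Both numbers are small beside the 43993 genes that averaged at least 1 CPM over the 4 libraries. Of the 31, 19 had over 3 counts in A50Cd, 29 in A200Cd and 17 in both, and 25 were higher in A200Cd than in A50Cd. How far the 2 chloride libraries differed in these genes was not tested.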

How the data were processed

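Per the labels' protocols, Trizol was used to take RNA and an Illumina TruSeq kit to build the libraries. Whole-number counts per gene ID and FPKM values were deposited by the authors for 10 libraries. Per the submitters' processing notes, Bowtie2 2.0.6 and TopHat2 2.0.12 were used. Not given in the sources used here were the counting program, genome build, annotation and strand setting. The deposited FPKM equalled counts scaled by library total and 1 length per gene, which gave the lengths used here. Every count column matched a title code.

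Counts of genes kept by filterByExpr were tested with edgeR 4.0.16 (TMM, quasi-likelihood F test, Benjamini-Hochberg at 0.05 over all genes tested) under R 4.3.3, with 2 residual degrees of freedom in the main comparison. Each SE was derived as |log2 fold| over the root of F. DESeq2 1.42.0, limma 3.58.1 on log2(FPKM + 0.1), other filters and scalings, a block for dose, the treatment text, and each library left out were alternatives; a covariate for iron and the count over 3 sulfate libraries were added after seeing the data. Scripts were tested on simulated data.

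Named genes had a mean of at least 5 CPM and groups that did not overlap, and took the smallest p, 2 per direction for each comparison, since the IDs carry no names. For the change of the salt effect, the groups were the 2 same-dose log2 ratios with and without cadmium. For both readings, the larger p decided. The comparison, the lists and the rules were chosen with earlier results of these data known, also the shift of LC IDs and of those of the Novel00015 form between the salts. No replicate numbers exist in the labels. Precision is limited by counting error and by having 1 library per treatment. A level of 3 counts, taken as the floor, corresponds to 0.172 to 0.210 CPM.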

Additional observations from a re-analysis of the deposited data

How the results depend on the processing

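For the salts under cadmium edgeR called 0 genes, and the count was also 0 with DESeq2 size factors, with 1 CPM in 2 libraries as the filter, with dose as a block, with the 8 iron-fed libraries in 1 fit, with limma on FPKM and under the treatment text. It was 4006 without a filter on low counts (3752 of these genes were also in the filtered fit), 1557 with DESeq2 and, in a fit added after seeing the data, 24 with log2 iron as a covariate, all 24 lower with sulfate. Leaving out a library gave 0 to 645. Unadjusted counts were 3487 in the fit of 8 and 6702 with the dose block. Without cadmium the count of 0 became 173 without a filter and 36 with DESeq2, and 0 to 8 without a library, the 8 without B200CK. For the change of the salt effect it became 941 and 106, and 0 to 1. The cause was not tested. The count of 509 genes 2-fold apart in every pair was 32 at a 4-fold limit (26 lower), 985 with a mean of 1 CPM, 175 under the treatment text and, added after seeing the data, 66 with all 3 sulfate libraries of either reading (55 lower). Without a library it was 1131 to 1337, since fewer pairs must then differ; without A200Cd 702 were higher and 562 lower. Of 244 values of named genes under alternatives, 50 passed the threshold and 3 reversed, all for TraesCS5D01G537900, from 1.04 by code to -0.70 with the iron covariate, -0.13 with limma and -2.95 without B200Cd. The values that passed came only from fits without a filter, with DESeq2, with the iron covariate or with a library left out. Most of these settings also raised the count over all genes. The dose block pairs libraries by title-code dose. Replicates are unnumbered in the labels, which leaves that block as the sole pairing.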
